A study of Mus musculus with 2 samples.

Results

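Mir216b, Mir216a and Mir217 are 3 microRNA genes that lie together on mouse chromosome 11, and their reads were examined in the hindbrain of newborn mice. Genes were taken by their GENCODE M21 symbols, and all 3 had a row among the 1973 microRNA genes of the deposited tables. They were selected on their levels (CPM, counts scaled to the library total) in these same libraries, with results already known, so the levels are given as a description and carry no test. The study has 1 group: the hindbrain of B6NCrl pups at postnatal day 0, with 1 library from a single hindbrain of pup 3 and 1 from a single hindbrain of pup 1. No genotype, treatment or age was compared. The assay was microRNA-seq on RNA labelled as below 30 nt: small RNAs receive adapters at both ends and are then sequenced. The labels record no sex for either pup. The labels number the pups as separate biological replicates and give both of them 1 donor record.

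MicroRNAs are short RNAs cut from a hairpin precursor, and they lower the output of messenger RNAs that pair with their seed, the bases near the 5′ end. The precursors of miR-216a, miR-216b and miR-217 are encoded close together in vertebrates. The cluster is best known from the pancreas, where it is abundant in the acinar cells that make digestive enzymes. miR-217 has been described as a regulator of the deacetylase Sirt1 in human endothelial cells.

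The mature sequences show how the members are related (RefSeq, GRCm38.p6, the assembly also called mm10). All lie on the plus strand, and capitals mark the seed, bases 2 to 8 from the 5′ end. The 5p arms come first because they hold the seeds for which the members are known.
miR-216b-5p: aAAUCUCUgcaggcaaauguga
miR-216a-5p: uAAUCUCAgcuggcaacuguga
miR-217-5p: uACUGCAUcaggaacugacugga
miR-216b-3p: aCACUUACcuguagagauucuu
miR-216a-3p: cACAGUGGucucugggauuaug
miR-217-3p: cAUCAGUUccuaaugcauugccu

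miR-216a-5p and miR-216b-5p have the same base at 18 of 22 positions. Counted from 1 at the 5′ end, with the base of miR-216a-5p first, they differ by U1A, A8U, U11A and C17A. The A8U difference lies at the last base of the seed, so these arms share seed bases 2 to 7 and not the whole seed. The seed of miR-217-5p is a different one. None of the 6 seeds of the cluster is the seed (bases 2 to 8) of a mature arm of any other gene in the RefSeq table, which holds 1738 mature arms of 1058 genes.

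The hairpins are printed with both arms in capitals, since the counts are per hairpin and reads of the arms are summed in them.
Mir216b: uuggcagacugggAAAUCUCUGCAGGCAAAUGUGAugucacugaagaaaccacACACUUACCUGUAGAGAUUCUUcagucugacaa
Mir216a: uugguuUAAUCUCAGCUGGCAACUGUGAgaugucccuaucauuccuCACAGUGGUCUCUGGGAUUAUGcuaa
Mir217: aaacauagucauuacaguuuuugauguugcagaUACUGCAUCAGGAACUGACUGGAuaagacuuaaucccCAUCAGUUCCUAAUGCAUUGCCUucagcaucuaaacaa

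The hairpin of Mir216b is 86 nt long with 44.2% G and C, and its predicted folding energy is -36.7 kcal/mol. That of Mir216a is 72 nt long with 44.4% G and C and -30.0 kcal/mol. That of Mir217 is 108 nt long with 38.0% G and C and -35.7 kcal/mol. The median G and C content of 869 hairpins with a row in the tables was 52.3%, above that of each member. No stretch of 20 nt in any of the 3 hairpins occurs in another of the 2202 precursors of GENCODE M21 at a different locus, on either strand. This bears on the counts, which leave out multimapped reads, 42.0% of the reads of pup 3 and 40.2% of those of pup 1. The rest of the genome was not searched for such stretches.

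In the genome (mm10, chromosome 11, plus strand) Mir216b (ENSMUSG00000076318.1) spans 28746191 to 28746276. Mir216a (ENSMUSG00000065539.1) spans 28757012 to 28757083, and Mir217 (ENSMUSG00000065415.1) spans 28763728 to 28763835. The gap between Mir216b and Mir216a is 10735 bp and that between Mir216a and Mir217 is 6644 bp, so that the whole cluster covers 17645 bp. In GENCODE M21, Mir216a and Mir217 lie in introns of Gm12082, a long non-coding RNA gene from 28751633 to 28815767, and Mir216b lies outside it. In RefSeq, Mir216b lies within the long non-coding RNA gene Mir217hg, from 28730633 to 28751781, whose annotated span ends before Mir216a. Neither of these host genes thus spans all 3 microRNA genes. The 2 hosts come from different annotations and their spans overlap, so they may not be separate genes. Neither host was measured in these small RNA tables.

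**Figure D1:**
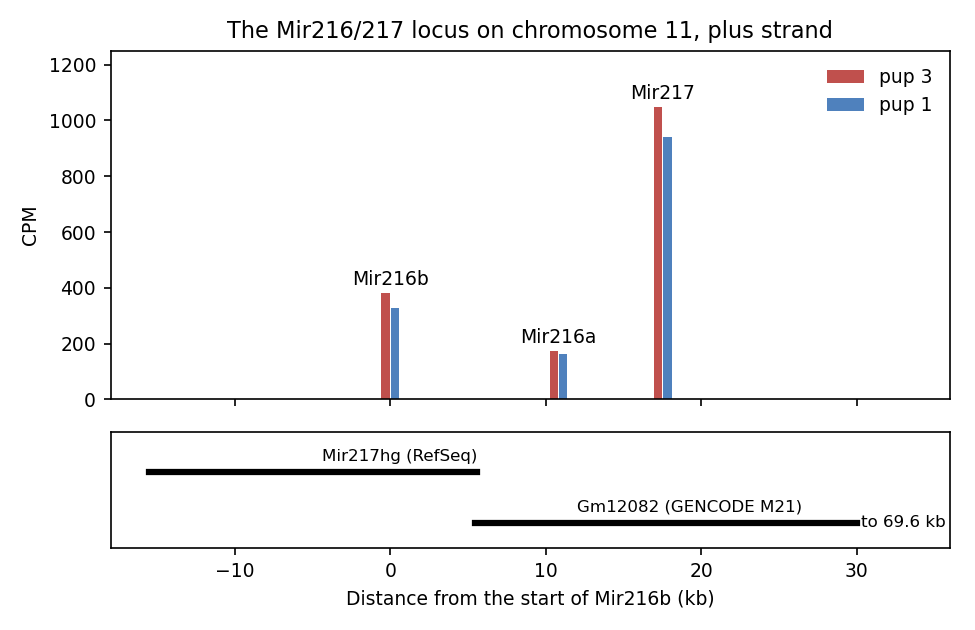
Level of each member in CPM (y axis) against distance from the start of Mir216b in kb (x axis), with pup 3 in red and pup 1 in blue; black lines below show the spans of Mir217hg and Gm12082. The highest level belongs to Mir217 at the far end of the cluster, and the gene between the others, Mir216a, has the lowest.

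Depth and tissue identity were checked first. Same-strand counts at genes, the totals behind CPM, were 3012320 in pup 3 and 2459757 in pup 1. The floor set by a count of 0 (3 counts) was 0.996 CPM for pup 3 and 1.22 CPM for pup 1. Among 11 listed microRNAs of nervous tissue, 10 had a row and 6 of these reached 10 CPM in both pups, led by Mir149 at 16538 ± 1327 CPM and Mir137 at 12408 ± 1160 CPM (SD, n = 2). Of 6 listed microRNAs of position along the body axis, 4 reached 10 CPM in both pups. The highest, Mir10a, encoded in a Hox cluster and a mark of caudal position, had 23544 CPM in pup 3 against 35717 CPM in pup 1. Mir10b, Mir615 and Mir196b had mean levels of 15527, 528 and 15.7 CPM. Mir196a-1 had no count and Mir196a-2 had a mean of 2.88 CPM, and each shares 20 nt with 1 other locus. The 3 Mir124a genes, known from neurons, had 17, 9 and 2 counts in pup 3 and 12, 4 and 3 counts in pup 1, and each shares 20 nt with 2 other loci.

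All 3 members were well above the counting floor in both pups, and their order was the same in each: Mir217 highest, Mir216b next and Mir216a lowest. Mir217 had 3157 counts in pup 3 and 2312 in pup 1. This came to 1048 CPM in pup 3 (exact 95% interval 1012 to 1085) and 940 CPM in pup 1 (902 to 979), a mean of 994 ± 76.4 CPM (SD, n = 2). As a share of counts, Mir217 made up 0.105% in pup 3 and 0.0940% in pup 1. Mir216b had 1149 counts in pup 3 and 809 in pup 1. In CPM this was 381 in pup 3 (360 to 404) and 329 in pup 1 (307 to 352), a mean of 355 ± 37.2 (SD, n = 2). Mir216a, the near relative of Mir216b by sequence, had 523 counts in pup 3 and 396 in pup 1. Its level was 174 CPM in pup 3 (159 to 189) and 161 CPM in pup 1 (146 to 178), a mean of 167 ± 8.93 CPM (SD, n = 2). The levels of the 3 genes did not overlap between genes: the lower value of Mir217 lay above the higher value of Mir216b, and the lower value of Mir216b above the higher value of Mir216a. In whole tissue, fewer cells that hold a microRNA and less of it per cell cannot be told apart.

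**Figure D2:**
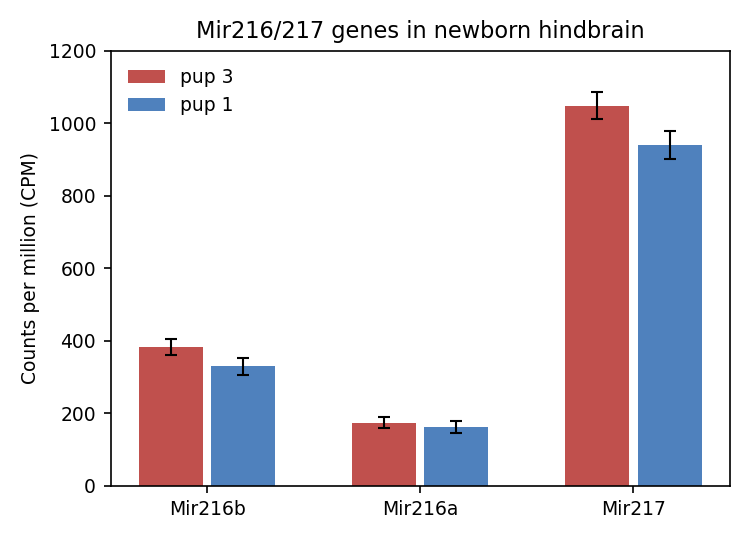
Level of each member in CPM (y axis) by gene (x axis), with pup 3 in red left of pup 1 in blue; black bars are exact 95% binomial intervals, which cover counting error only. Mir217 stands at 1048 CPM in pup 3 and 940 in pup 1, and the intervals of the 3 genes do not overlap.

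Placed among all genes, Mir217 was number 104 by mean CPM, Mir216b number 161 and Mir216a number 202. Of the 699 genes with a count in either pup, 85.1% lay below Mir217, 77.0% below Mir216b and 71.1% below Mir216a. These are ranks of counted reads: genes that share sequence with other loci, such as the 3 Mir124a genes, lack their multimapped reads. The members share no stretch of 20 nt with another microRNA precursor. The rest of the genome was not searched, so whether they too lack multimapped reads is not known. The ranks differed little between pups: Mir217 was number 102 in pup 3 and 108 in pup 1, Mir216b number 156 in pup 3 and 161 in pup 1, and Mir216a number 200 in pup 3 and 202 in pup 1. The median mean CPM of the 699 genes was 5.13, and that of the 395 genes with at least 10 counts in either pup was 181. Mir216a therefore stood just under the middle of the genes with at least 10 counts, and Mir217 well above it.

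**Figure D3:**
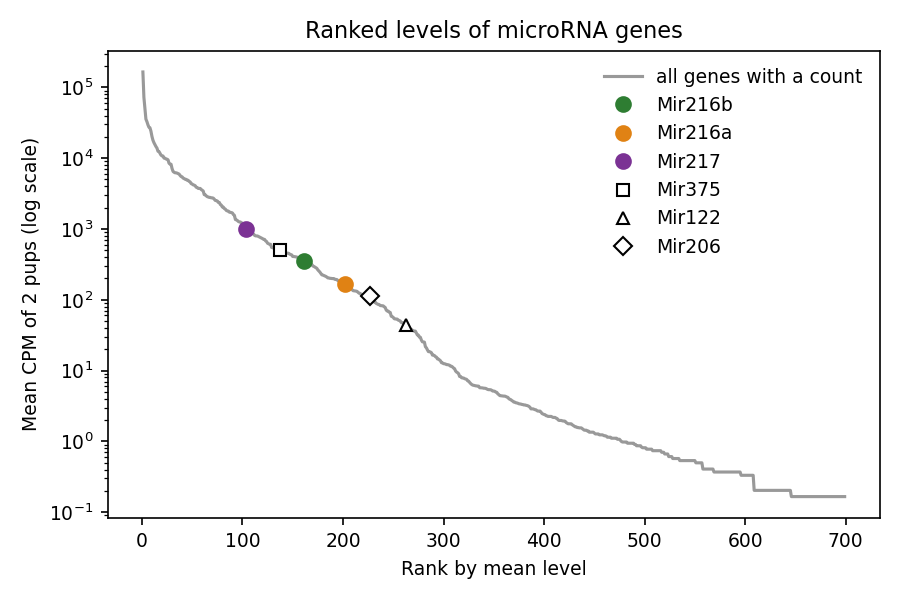
Mean CPM of the 2 pups on a log scale (y axis) against rank (x axis) for the 699 genes with a count (grey line), with the members as filled circles and Mir375, Mir206 and Mir122 as open symbols. Mir217 stands above Mir375, and all 3 members stand above Mir206 and Mir122.

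The genes whose 2 values were nearest to those of each member, by distance of log2(CPM + 1) over both libraries among 394 candidates, came from other chromosomes. Nearest to Mir217 were Mir676 (distance 0.017, with 1035 CPM in pup 3 and 940 in pup 1), Mir448 (0.12) and Mir92-1 (0.15). Nearest to Mir216b were Mir421 (0.0097, with 380 CPM in pup 3 and 327 in pup 1), Mir592 (0.096) and Mir339 (0.097). Nearest to Mir216a were Mir135a-1 (0.034, with 173 CPM in pup 3 and 157 in pup 1), Mir669c (0.14) and Mir181a-2 (0.16). With only 2 libraries this likeness is one of level, and it says where each member stands in the profile.

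The makeup of the cluster was nearly the same in both pups. Mir217 held 65.4% of the cluster's 4829 counts in pup 3 (exact interval 64.0% to 66.7%) and 65.7% of its 3517 counts in pup 1 (64.1% to 67.3%). Mir216b held 23.8% in pup 3 (22.6% to 25.0%) and 23.0% in pup 1 (21.6% to 24.4%). Mir216a held 10.8% in pup 3 (9.97% to 11.7%) and 11.3% in pup 1 (10.2% to 12.4%). For each member, the share in 1 pup lay inside the interval of the other pup. Expressed as ratios of counts, Mir217 was 6.04 times Mir216a in pup 3 (5.50 to 6.63) and 5.84 times in pup 1 (5.25 to 6.51). Mir217 was 2.75 times Mir216b in pup 3 (2.57 to 2.94) and 2.86 times in pup 1 (2.64 to 3.10). Mir216b was 2.20 times Mir216a in pup 3 (1.98 to 2.44) and 2.04 times in pup 1 (1.81 to 2.31). Counts were not scaled by length, on the assumption, not checked here, that a read holds a whole mature microRNA. How completely each sequence was recovered in these libraries was not measured, and the ratios are those of counted reads.

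Summed, the cluster had 1603 CPM in pup 3 (1558 to 1649) and 1430 CPM in pup 1 (1383 to 1478), or 0.152% ± 0.0123 of counts (SD, n = 2). Each gene's 2 counts were compared by an exact binomial test given totals scaled by TMM, a normalization that trims extreme genes, with Benjamini-Hochberg adjustment over all 395 genes with at least 10 counts. The test asks whether the 2 libraries differ beyond counting error. With 1 library on each side it compares no condition. Mir217 was higher in pup 3 by a log2 fold of 0.10 (exact interval 0.03 to 0.18, adjusted p = 0.0198). Mir216b was higher in pup 3 by 0.16 (0.03 to 0.29, exact binomial test, adjusted p = 0.0344). Mir216a had a log2 fold of 0.06 (-0.14 to 0.25, exact binomial test, adjusted p = 0.722) and did not pass. So 2 of 3 members were called higher in pup 3, where 25.6% of the tested genes were called higher, 21.3% lower and 46.8% in either direction. Marker genes also differed between these libraries by the same test. The oligodendrocyte genes Mir219a-2 and Mir338 were called higher in pup 3 (log2 folds 0.29 and 0.24). Of 7 nervous tissue genes tested, 4 were called higher, with Mir153 the farthest (0.74), and 2 lower, Mir149 (-0.22) and Mir9-3 (-0.33). Of 5 genes tested from the list of position along the body axis, the Hox-encoded Mir10a and Mir10b were called lower (-0.65 and -1.09) and none higher. Among 3 striated muscle genes tested, Mir206 was called higher (0.29) and none lower, and the liver gene Mir122 did not pass (0.06). The part of these markers in the members' folds was not tested. The call of Mir216b was lost (adjusted p = 0.0606, same exact test) when all 699 genes with a count were tested.

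These folds were small against the spread between the pups. The median size of the log2 fold over the 395 genes was 0.22, with quartiles at 0.11 and 0.46. In size, the fold of Mir216b exceeded that of 36.7% of genes or equalled it, that of Mir217 24.6% and that of Mir216a 14.2%. The summed cluster had a log2 fold of 0.11 (interval 0.05 to 0.18). The intervals of the 3 members overlapped one another, and the difference in fold between members was not tested.

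**Figure D4:**
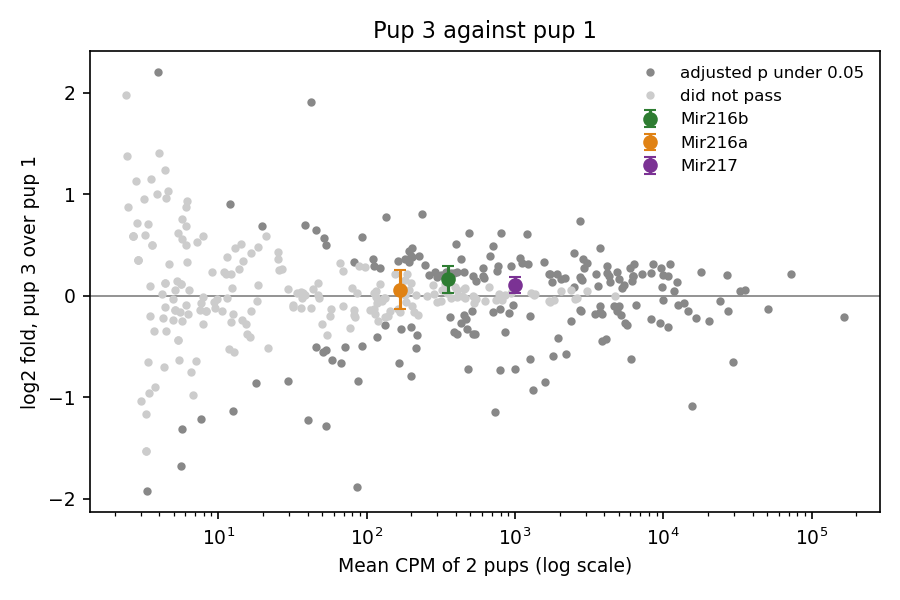
Log2 fold of pup 3 over pup 1 (y axis) against mean CPM on a log scale (x axis) for 395 genes, dark grey where the exact binomial test passed and light grey where it did not; members are coloured, with exact 95% intervals. The 3 members lie close to 0, between 0.06 and 0.16, inside the cloud of genes of like level.

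The cluster was then set beside other groups of neighbouring microRNA genes. With neighbours on 1 strand joined up to 50 kb apart, and only genes with at least 10 counts in either pup, the 3 members formed 1 cluster beside 51 others. The log2 folds of Mir216b, Mir216a and Mir217 spanned a range of 0.11. Over the 51 other clusters the median range was 0.42, and 5 had a smaller one. Of these clusters, 9 also had 3 genes, and their ranges ran between 0.12 and 1.32. Counting error widens the range where counts are low. Among the 5 of these 9 in which every gene had at least 100 counts, as here, the ranges ran between 0.21 and 0.95. With the shorter limit of 10 kb, Mir216b separates from the others, because its gap to Mir216a is 10735 bp. The pair of Mir216a and Mir217 then had a range of 0.05, where the median of 29 other pairs was 0.23 and 1 pair had a smaller range. Among the 21 of these pairs with at least 100 counts for every gene, the median was 0.21 and 1 had a smaller range. The interval of the fold of Mir216a alone (-0.14 to 0.25) is wider than 0.05 and wider than 0.11. The closeness of the pair and that of the 3 members thus cannot be told from counting error. These are descriptions of 2 libraries, with no test.

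**Figure D5:**
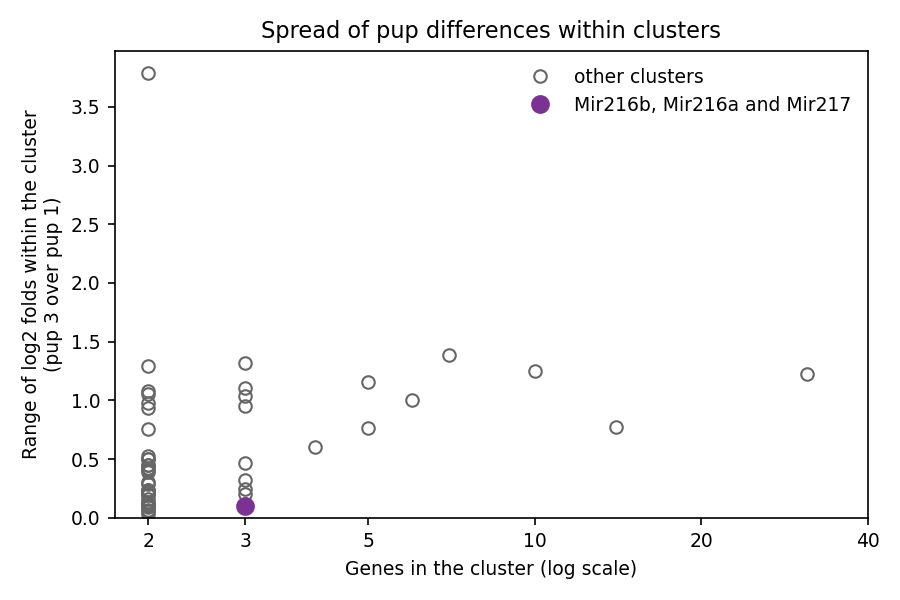
Range of log2 folds, pup 3 over pup 1, among the genes of a cluster (y axis) against the number of genes in it on a log scale (x axis), for clusters of neighbours up to 50 kb apart. The Mir216b, Mir216a and Mir217 cluster (filled) lies at 0.11, below the 9 other clusters of 3 genes (open). Its closeness cannot be told from counting error.

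The levels of the members were farther apart than their folds. The highest and lowest members, Mir217 and Mir216a, were 2.56 apart on the log2(CPM + 1) scale (2.59 in pup 3 and 2.54 in pup 1). Over the 51 other clusters the median difference of the highest and lowest member was 3.99, and over the 9 of 3 genes it was 4.85, with 2 of the 9 below the value here. These are differences of counted reads. Some genes of the other clusters, such as Mir196a-2 and Mir124a-1, share a stretch of sequence with other loci and lack their multimapped reads. Mir216b, Mir216a and Mir217 share none with another microRNA precursor, and the rest of the genome was not searched. The other clusters were not sorted by such sharing, so a narrower spread of true levels here is not shown. The order of the members was the same in both pups, as it was in 43 of the 51 other clusters.

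Other microRNAs known from the pancreas were also counted. Mir216c, the remaining listed gene, has no row of its own, and 6 of 7 listed genes could be read. All 6 reached 10 CPM in both pups, with a median mean CPM of 369, where the median of all genes with at least 10 counts was 181. Mir7b, of the miR-7 family found in endocrine and neural cells, had 1693 CPM in pup 3 against 2185 CPM in pup 1. In counted reads, Mir7b alone of the 6 lay above Mir217. Mir7-1 and Mir7-2, with mean levels of 347 and 255 CPM, each share a stretch of sequence with 1 other locus. Multimapped reads are missing from these genes, so their counts do not place their levels below that of Mir217. The median of the list rests on counted reads too. Mir375, a microRNA of pancreatic islet and other endocrine cells, had 495 CPM in pup 3 against 529 CPM in pup 1. Mir217 had 2.12 times the counts of Mir375 in pup 3 (exact interval 1.99 to 2.25) and 1.78 times in pup 1 (1.66 to 1.90). Mir148a, abundant in pancreas, had 428 CPM in pup 3 against 354 CPM in pup 1, close to Mir216b. Mir184 was the lowest of the 6, with 31.2 CPM in pup 3 and 32.1 CPM in pup 1. Of the 6, 1 was called higher in pup 3 (Mir148a), 2 lower (Mir375 and Mir7b) and 3 did not pass the exact binomial test. This 3 of 6 is near the 46.8% called over all tested genes.

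In counted reads, the liver gene and the striated muscle genes with a row lay below the members. Mir122, the microRNA of hepatocytes, had 45.5 CPM in pup 3 against 41.9 CPM in pup 1. Mir217 had 23.0 times its counts in pup 3 (19.4 to 27.5) and 22.4 times in pup 1 (18.4 to 27.6). Of 7 striated muscle genes with a row, 3 had no count (Mir1a-1, Mir133a-1 and Mir133a-2). Each of these shares 20 nt with 2 other loci, so reads that map to several loci are missing from it and its count says nothing of its level. The other 4 share no such stretch and lay below Mir216a. The highest of them, Mir206, a microRNA of skeletal muscle, had 125 CPM in pup 3 against 98.4 CPM in pup 1. The oligodendrocyte microRNAs Mir219a-2 and Mir338, at 939 ± 156 and 758 ± 110 CPM (SD, n = 2), lay between Mir217 and Mir216b by mean level. Mir219a-2, which shares 20 nt with 2 other loci, had 1049 CPM in pup 3 against 828 CPM in pup 1, beside 1048 and 940 CPM for Mir217 in the same pups. In the nervous tissue list, 5 of 10 genes stood above Mir217. The other 5, Mir9-2, Mir9-3 and the 3 Mir124a genes, each share 20 nt with other loci. Multimapped reads are missing from them, so their counts do not place their levels below that of Mir217.

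GENCODE M21 places Mir216c, a further microRNA gene, on the minus strand within the span of Mir216b, at 28746198 to 28746266. Its arms are shown because they pair with those of Mir216b base by base: miR-216c-5p overlaps miR-216b-3p over 22 nt, and miR-216c-3p overlaps miR-216b-5p over 17 nt. Capitals mark the seeds.
miR-216c-5p: gAAGAAUCucuacagguaagugu
miR-216c-3p: uUUGCCUGcagagauuucccagu

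Reads from Mir216c would fall in the opposite-strand column of Mir216b. That column held 0 counts in pup 3, beside 1149 same-strand counts, and 0 in pup 1, beside 809. A count of 0 allows opposite-strand reads of up to 0.261% of the same-strand reads in pup 3 and 0.371% in pup 1. Mir216a and Mir217 also had 0 opposite-strand counts in both pups. Elsewhere in the tables, 11 genes had more opposite-strand than same-strand counts in both pups, above 3 counts in each. Reads of Mir216c were not detectable at this depth, and all counted reads at Mir216b lay on its own strand.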

How the data were processed

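For each library, the authors deposited raw counts of reads per microRNA gene, made on mm10 with GENCODE M4 (per the listings beside the tables). The sources used here do not give the aligner, the counter or the adapter trimming. The tables hold 3 count columns. Their meaning (either, same and opposite strand) was inferred from the layout, and the same-strand column was used. Rows that name no gene (unmapped, multimapped and featureless reads, 58.0% of reads in pup 3 and 57.7% in pup 1) were left out of totals. The members and lists were chosen with earlier results of these data known. Symbols and coordinates came from GENCODE M21 (1894 of 1973 identifiers matched, versions removed), sequences from RefSeq.

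CPM used plain totals, and folds used TMM-scaled totals (edgeR 4.0.16, R 4.3.3) and a prior of 0.5 counts. With 1 library a side there are no residual degrees of freedom for edgeR's quasi-likelihood test, which was left out. The exact binomial test is two-sided (scipy 1.17.1), with a threshold of 0.05, and was tested on simulated data. Intervals are 95% Clopper-Pearson. Intervals and floors cover counting error only, since reads carry no molecular identifiers. Hairpins were folded with ViennaRNA 2.7.2. Genes named were the members, microRNA genes within 50 kb, listed genes and the 3 nearest genes by level. Alternatives were plain totals, DESeq2 1.42.0 size factors, other filters, priors, denominators and cluster distances, and each pup alone.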

Additional observations from a re-analysis of the deposited data

How the results depend on the processing

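The order of the 3 levels and the sign of the 3 folds held under every alternative run, but much of this was fixed in advance. Other denominators scale the 3 genes of a library alike, and either-strand counts added 0 to each, so neither could change the order within a pup. The filters on counts left the folds themselves unchanged. With all reads of the table as the denominator in place of reads counted at genes, mean levels were lower: 419 CPM for Mir217, 149.6 CPM for Mir216b, 70.5 CPM for Mir216a and 639 CPM for their sum. Either-strand counts and TMM-scaled totals moved the 4 levels by less than 1 SD. Pup 3 alone gave 1603 CPM and pup 1 alone 1430 CPM for the sum, and with 2 pups the distance of each from the mean is fixed by the SD. The log2 fold of Mir216b stayed at 0.16 but lost its call (adjusted p = 0.0606, exact binomial test) when every gene with at least 1 count was tested. Its adjusted p ran between 0.00323 and 0.0344 under the other alternatives. That of Mir217 ran between 0.000201 and 0.0348, and Mir216a passed under none (0.391 to 0.879). Between 177 and 191 genes were called under the alternatives, where the main count was 185. Plain totals moved all folds by 0.05 on the log2 scale. The spread of levels in the cluster was 2.56 with either distance limit. This was fixed in advance, because its highest and lowest genes, Mir217 and Mir216a, stay joined under both limits. No paired analysis was possible because there is 1 group. With 2 libraries, no test against a spread between pups could be made for a single gene.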
